A study of Mus musculus with 6 samples.

Results

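The genes described here are type I interferon-stimulated genes, measured by bulk RNA sequencing of mouse prefrontal cortex. A list of 32 gene symbols defined them, and 31 had a row among the 21878 genes of the deposited table. Mx2 was not analysed here. Tissue came from 3 Gls1_CamkIIaCre mice, which carried CamKIIα-Cre and 1 floxed Gls1 allele (CamKIIαCre;Gls1+/flox), and from 3 control littermates with CamKIIα-Cre and 2 intact alleles (CamKIIαCre;Gls1+/+). All 6 mice therefore carried the Cre, although the sample labels give the control genotype as WT. Gls1 encodes a glutaminase, the enzyme that turns glutamine into glutamate. The CamKIIα promoter is active mainly in forebrain excitatory neurons, the mutants are mosaic and heterozygous, and the tissue was not sorted, so every library mixes recombined neurons with all other cells of the cortex. The labels used here give neither age nor sex.

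Type I interferons bind the receptor pair IFNAR1 and IFNAR2, whose kinases JAK1 and TYK2 phosphorylate STAT2. STAT2 joins IRF9 in a complex that binds the interferon-stimulated response element (ISRE) in promoters and switches on antiviral genes. Microglia, endothelial cells, astrocytes and neurons can all respond to interferon, and brain tissue keeps a low level of interferon-stimulated transcripts without infection.

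The promoters of the genes with an ISRE core are shown because that sequence is the binding site that links many of them. The core searched was GAAA, 2 bases of any kind and GAAA again, which reads TTTC, 2 bases and TTTC on the other strand. It was searched on both strands of the 250 bases before the RefSeq transcript start (GRCm38.p6). A window was found for 24 of the 31 genes. No window was used for Rtp4, Usp18, Parp14, Dhx58, Oas2, Zbp1 or Ifi27. The stretches below are the last 150 bases before the start of 4 genes, written 5′ to 3′ in the direction of the gene, with the core in capitals. Isg15 lies on the minus strand at chr4:156200819-156200968, Bst2 on the minus strand at chr8:71537473-71537622, Ifit1 on the plus strand at chr19:34640739-34640888 and Rsad2 on the minus strand at chr12:26456453-26456602.
Isg15: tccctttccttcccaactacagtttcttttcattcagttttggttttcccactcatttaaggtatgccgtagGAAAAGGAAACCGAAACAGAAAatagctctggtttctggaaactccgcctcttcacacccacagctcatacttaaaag
Bst2: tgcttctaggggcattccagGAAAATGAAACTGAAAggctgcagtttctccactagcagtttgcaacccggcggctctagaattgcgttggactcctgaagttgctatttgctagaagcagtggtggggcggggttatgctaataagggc
Ifit1: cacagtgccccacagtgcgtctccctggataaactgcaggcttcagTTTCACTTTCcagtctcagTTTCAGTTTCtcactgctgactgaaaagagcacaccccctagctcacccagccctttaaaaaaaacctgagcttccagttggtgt
Rsad2: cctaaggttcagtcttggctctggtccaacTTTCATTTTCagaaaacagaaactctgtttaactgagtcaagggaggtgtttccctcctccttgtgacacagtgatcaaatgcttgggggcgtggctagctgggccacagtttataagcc

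The 30 bases around the core are given for the other genes that hold it. They lie at chr19:34583363-34583392 and chr19:34583397-34583426 for Ifit3, chr19:34607759-34607788 and chr19:34607793-34607822 for Ifit3b, and chr10:128270271-128270300 for Stat2, all on the plus strand. Those of Oas1a (chr5:120907526-120907555), Cxcl10 (chr5:92349078-92349107) and Trim30a (chr7:104465205-104465234) lie on the minus strand. For Ifit3, Ifit3b and Oas1a the transcript start used lies inside the annotated gene span. Their sites therefore lie within that span, for Oas1a only in part. Both 30-base sites of Ifit3 are the same in Ifit3b, its near copy on chromosome 19.
Ifit3 and Ifit3b, site 1: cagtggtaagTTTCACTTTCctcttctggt
Ifit3 and Ifit3b, site 2: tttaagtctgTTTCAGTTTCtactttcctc
Oas1a: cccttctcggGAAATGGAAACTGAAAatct
Cxcl10: ctttgGAAAGTGAAActtacctcactcgtt
Trim30a: tttagTTTCTTTTTCtcagttcctgccctc
Stat2: cctggTTTCAGTTTCctttccctagaactc

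The ISRE core was present in a window of 10 of the 24 genes (41.7%), against 936 of all 27025 genes with a RefSeq window of the same length (3.46%). A gene with more than 1 window, as Ifit2, Irf9 and Trim30a have, was counted once, as holding a motif if any window held it. A longer form, the core followed directly by CT, was present in 29.2% of these genes and in 0.255% of all genes with a window. The gamma-activated sequence TTCNNNGAA was found in 16.7% against 8.13% of all genes with a window. The NF-kB motif, GGGA, 2 bases of any kind and TTCC, was found in 12.5% against 1.36%. Such a match is a description of letters, and the 14 genes without the core lack only these letters in these bases.

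**Figure D1:**
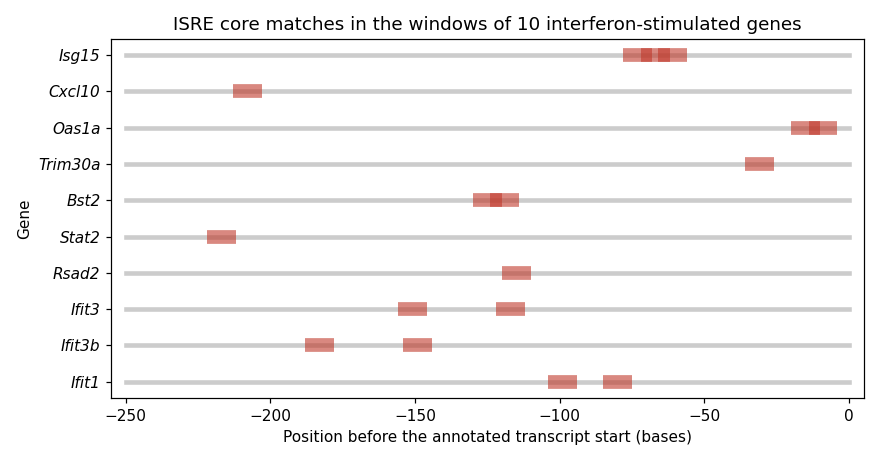
Positions of the ISRE core (red boxes) in the 250 bases before the annotated transcript start of 10 interferon-stimulated genes. The x axis gives distance from that start in bases, with 1 gene per row. For Ifit3, Ifit3b and Oas1a this start lies inside the gene span. Isg15 holds 3 overlapping cores, whereas Rsad2, Cxcl10, Trim30a and Stat2 hold 1 each.

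Library totals lay between 17987807 and 19330961 counts. Values per library are TMM-normalised counts scaled to library size (CPM), given in the order of libraries 1, 2 and 3 of each group. These genes were chosen with this contrast known, so their values describe the data and no p is given for them. In bulk tissue, fewer cells of a type and less RNA per cell cannot be told apart. The library control 1 stood apart for these genes, with the highest control CPM in 31 of 31. Over all 14440 tested genes, control 1 was the highest control library in 33.4%.

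All 31 genes had a lower mean CPM in Gls1_CamkIIaCre libraries than in control libraries. Of the 29 that passed the filter on low counts, 21 were called lower and 0 higher by edgeR at an adjusted p under 0.05, 4.29% of all tested genes being called lower and 8.24% in either direction. Because the choice of genes rests on this contrast, nothing is read from that count. The median log2 fold change (Gls1_CamkIIaCre over control) of the 29 was −0.96, against 0.00 over all tested genes, and ran from −3.65 for Cxcl10 to −0.16 for Stat2. For 27 of the 31, the 3 Gls1_CamkIIaCre values lay below all 3 control values, an order seen in 13.6% of all tested genes. The groups overlapped for Oas1a, Oasl1, Ifih1 and Trim30a. By the authors' FPKM the 5 with overlap were Oasl1, Ifih1, Trim30a, Xaf1 and Zbp1, and control 1 was the highest control library for 30 genes, Ifi27 being the exception.

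**Figure D2:**
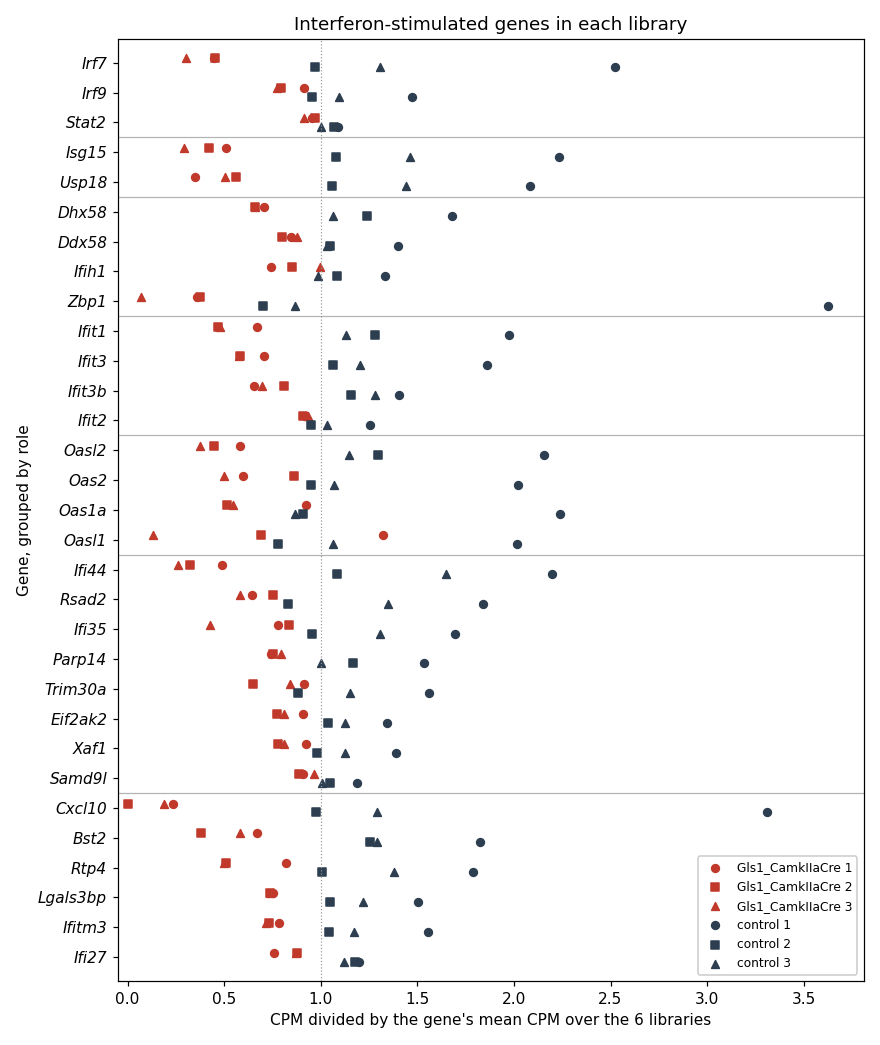
CPM of 31 interferon-stimulated genes in each library, divided by the gene's mean over the 6 libraries (x axis, linear), with genes grouped by role on the y axis, red for Gls1_CamkIIaCre and dark blue for control libraries. Control 1 (dark circles) lies farthest right in every row among the control libraries, and the red symbols overlap the dark ones for Oas1a, Oasl1, Ifih1 and Trim30a.

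Among the transcription factors of the pathway, Irf7 differed most. IRF7 amplifies the response by driving interferon genes, and it is itself interferon-induced. Irf7 had 1.55, 1.56 and 1.06 CPM in Gls1_CamkIIaCre libraries, against 8.73, 3.35 and 4.52 CPM in control libraries. The groups did not overlap, and control 1 held more than the other two control libraries together. The log2 fold change was −2.00 ± 0.39 (SE), and −1.50 without control 1. Irf9, the DNA-binding subunit of the STAT complex, had 9.85, 8.52 and 8.33 CPM in Gls1_CamkIIaCre libraries, against 15.8, 10.3 and 11.8 CPM in control libraries. Its log2 fold change was −0.51 ± 0.14, and −0.31 without control 1, with control 2 close to the highest Gls1_CamkIIaCre library. Stat2, which joins IRF9 after phosphorylation, had 29.2, 29.5 and 27.8 CPM in Gls1_CamkIIaCre libraries, against 33.3, 32.5 and 30.6 CPM in control libraries. These groups lay next to each other without overlap, at a log2 fold change of −0.16 ± 0.07.

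ISG15 is a ubiquitin-like protein that is attached to others during the interferon response, and USP18 removes it and also dampens signalling at IFNAR2. Isg15 (chr4:156199424-156200818) had 1.02, 0.836 and 0.580 CPM in Gls1_CamkIIaCre libraries, against 4.44, 2.15 and 2.91 CPM in control libraries. Every control library lay above every Gls1_CamkIIaCre library for Isg15. Usp18 had 0.696, 1.11 and 1.00 CPM in Gls1_CamkIIaCre libraries, against 4.13, 2.10 and 2.85 CPM in control libraries, again without overlap. The log2 fold changes were −1.96 ± 0.32 for Isg15 and −1.69 ± 0.30 for Usp18, and −1.63 and −1.39 without control 1.

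The sensors of foreign nucleic acid in the cytosol ranged widely. Ddx58 encodes RIG-I and Ifih1 encodes MDA5, both sensors of viral RNA, and Dhx58 encodes their relative LGP2. Ddx58 had 6.32, 5.96 and 6.54 CPM in Gls1_CamkIIaCre libraries, against 10.5, 7.81 and 7.70 CPM in control libraries, a log2 fold change of −0.47 ± 0.14. Ifih1 had 6.37, 7.30 and 8.54 CPM in Gls1_CamkIIaCre libraries, against 11.4, 9.28 and 8.45 CPM in control libraries. Gls1_CamkIIaCre 3 and control 3 were nearly level for Ifih1, so the groups overlapped. Dhx58 had 1.07, 1.00 and 1.00 CPM in Gls1_CamkIIaCre libraries, against 2.55, 1.89 and 1.61 CPM in control libraries, without overlap. Zbp1, a sensor of Z-form nucleic acid that can trigger necroptosis, did not pass the filter on low counts. It had 0.268, 0.279 and 0.0527 CPM in Gls1_CamkIIaCre libraries, against 2.71, 0.524 and 0.646 CPM in control libraries. Control 1 held 4.63 times the mean of the other two control libraries, the largest such ratio among the 31 genes.

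The Ifit genes form a cluster on chromosome 19, in the order Ifit2 (chr19:34550550-34576534), Ifit3 (chr19:34583119-34588982), Ifit3b (chr19:34607530-34613403) and Ifit1 (chr19:34640889-34650009). Their products bind viral RNA and limit its translation. Ifit1 had 3.75, 2.62 and 2.69 CPM in Gls1_CamkIIaCre libraries, against 11.1, 7.18 and 6.35 CPM in control libraries. The groups did not overlap, and the log2 fold change was −1.44 ± 0.22, or −1.16 without control 1. Ifit3 had 10.8, 8.86 and 8.81 CPM in Gls1_CamkIIaCre libraries, against 28.3, 16.2 and 18.3 CPM in control libraries, also without overlap. Ifit3 was not called although its log2 fold change was −1.14 ± 0.25. Ifit3b had 5.68, 7.02 and 6.01 CPM in Gls1_CamkIIaCre libraries, against 12.2, 10.01 and 11.1 CPM in control libraries, with control libraries closer together than for Ifit3. Ifit2, first in the cluster, had 19.0, 18.7 and 19.4 CPM in Gls1_CamkIIaCre libraries, against 25.9, 19.7 and 21.4 CPM in control libraries. Its log2 fold change of −0.23 ± 0.09 became −0.11 without control 1. How reads shared by Ifit3 and Ifit3b were counted is not given in the sources used here, and 51.2% of the 50-base words of the longest Ifit3 transcript occur in Ifit3b, so their separate values are uncertain. Ifit1bl1, which overlaps Ifit3b and Ifit1, stood at 5.27 ± 1.15 CPM in Gls1_CamkIIaCre libraries and 4.67 ± 0.768 CPM in control libraries (SD, n = 3 each, edgeR adjusted p = 0.620).

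The Oas genes on chromosome 5 encode enzymes that make oligoadenylates, which activate the antiviral RNase L, and related proteins. Oasl2 had 4.45, 3.40 and 2.85 CPM in Gls1_CamkIIaCre libraries, against 16.4, 9.85 and 8.72 CPM in control libraries. No values crossed, and the log2 fold change was −1.71 ± 0.29, or −1.38 without control 1. The rest of the family was low. Oas2 had 0.696, 1.00 and 0.580 CPM in Gls1_CamkIIaCre libraries, against 2.35, 1.10 and 1.24 CPM in control libraries, with control 2 just above Gls1_CamkIIaCre 2. Oas1a had 0.803, 0.446 and 0.475 CPM in Gls1_CamkIIaCre libraries, against 1.94, 0.786 and 0.753 CPM in control libraries. Only control 1 lay clear of the mutants for Oas1a, and its log2 fold change of −1.01 ± 0.44 became −0.42 without that library. Oas1a also shares 57.6% of its 50-base words with Oas1g. Oasl1, below the filter, had 0.536, 0.279 and 0.0527 CPM in Gls1_CamkIIaCre libraries, against 0.817, 0.314 and 0.431 CPM in control libraries, and the groups overlapped.

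Other intracellular effectors spanned a wide range. Ifi44, an interferon-induced protein, had 0.589, 0.390 and 0.316 CPM in Gls1_CamkIIaCre libraries, against 2.65, 1.31 and 1.99 CPM in control libraries. The groups were clearly separate, at a log2 fold change of −2.19 ± 0.38. Rsad2, which encodes viperin and makes a chain-terminating nucleotide, had 1.34, 1.56 and 1.21 CPM in Gls1_CamkIIaCre libraries, against 3.83, 1.73 and 2.80 CPM in control libraries. Control 2 lay just above the highest Gls1_CamkIIaCre library for Rsad2. Eif2ak2, the kinase PKR that stops translation on double-stranded RNA, had 9.16, 7.80 and 8.12 CPM in Gls1_CamkIIaCre libraries, against 13.5, 10.4 and 11.3 CPM in control libraries. Its log2 fold change was −0.49 ± 0.12, with no overlap. Parp14, an ADP-ribosyltransferase, had 5.25, 5.35 and 5.64 CPM in Gls1_CamkIIaCre libraries, against 10.9, 8.28 and 7.10 CPM in control libraries. Gls1_CamkIIaCre libraries were nearly level for Parp14 and control libraries were not. The log2 fold changes of the remaining effectors were −0.96 ± 0.27 for Ifi35, −0.58 ± 0.20 for the ubiquitin ligase family gene Trim30a, −0.48 ± 0.14 for Xaf1 and −0.23 ± 0.10 for Samd9l. Ifi35, Xaf1 and Samd9l did not overlap between groups by CPM, whereas Trim30a did.

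Genes of membrane and secreted proteins included the strongest difference. Cxcl10, a chemokine that attracts T cells, had 5, 0 and 4 counts in Gls1_CamkIIaCre libraries, against 73, 21 and 27 counts in control libraries. In CPM this was 0.268, 0 and 0.211 in Gls1_CamkIIaCre libraries, against 3.73, 1.10 and 1.45 in control libraries. The fitted log2 fold change of −3.65 ± 0.72 rests on few counts, and was −2.93 without control 1. Bst2 encodes tetherin, which holds budding virus at the cell surface. It had 2.73, 1.56 and 2.37 CPM in Gls1_CamkIIaCre libraries, against 7.45, 5.14 and 5.27 CPM in control libraries. Control 2 and control 3 were nearly level for Bst2 and well above every Gls1_CamkIIaCre library, with a log2 fold change of −1.42 ± 0.21, or −1.22 without control 1.

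Ifitm3, which blocks fusion of virus with endosomes, had 8.62, 8.08 and 7.91 CPM in Gls1_CamkIIaCre libraries, against 17.2, 11.5 and 12.9 CPM in control libraries. Lgals3bp, a secreted galectin-binding glycoprotein, had 13.2, 12.98 and 12.97 CPM in Gls1_CamkIIaCre libraries, against 26.4, 18.4 and 21.4 CPM in control libraries. For both genes the Gls1_CamkIIaCre libraries were tightly grouped below all control libraries, at log2 fold changes of −0.76 ± 0.13 and −0.76 ± 0.11. Rtp4, a chaperone of cell surface receptors, had 2.95, 1.84 and 1.79 CPM in Gls1_CamkIIaCre libraries, against 6.43, 3.62 and 4.95 CPM in control libraries. Ifi27, a small membrane protein gene, had 15.7, 18.3 and 18.1 CPM in Gls1_CamkIIaCre libraries, against 24.9, 24.5 and 23.3 CPM in control libraries. Ifi27 was the gene with the most even control libraries, control 1 standing 1.04 times the mean of the other two. Its log2 fold change of −0.48 ± 0.08 was −0.46 without control 1. The gene spans of Ifi27 and Ifi27l2a overlap, as do those of Cxcl10 and Art3, Stat2 and Apof, Rtp4 and Masp1, and Eif2ak2 and Gm26637. Overlap of exons was not examined and the use of strand in counting is not given. Whether reads were shared is therefore not known.

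Levels of different genes can be compared only per length, for which the authors' FPKM values were used. Ifitm3 was the highest, at 15.1 ± 0.746 FPKM in Gls1_CamkIIaCre libraries and 25.7 ± 5.57 FPKM in control libraries (SD, n = 3 each). Ifi27 followed with 7.88 ± 0.709 FPKM in Gls1_CamkIIaCre libraries and 11.5 ± 0.117 FPKM in control libraries. Lgals3bp was next, with 5.08 ± 0.135 FPKM in Gls1_CamkIIaCre libraries and 8.86 ± 1.63 FPKM in control libraries. Zbp1 was the lowest in Gls1_CamkIIaCre libraries, at 0.0378 FPKM against 0.288 FPKM in control libraries. Oasl1, with 0.0921 FPKM in Gls1_CamkIIaCre libraries and 0.199 FPKM in control libraries, was the lowest in control libraries. In control libraries, the neighbours Stat2 at 4.70 ± 0.173 FPKM and Isg15 at 4.68 ± 1.83 FPKM did not differ beyond their spread.

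The log2 fold changes not yet given were −0.83 ± 0.13 for Ifit3b, −1.05 ± 0.37 for Oas2, −1.02 ± 0.29 for Rsad2, −0.70 ± 0.15 for Parp14, −0.98 ± 0.29 for Dhx58, −0.39 ± 0.14 for Ifih1 and −1.19 ± 0.24 for Rtp4. All 29 log2 fold changes were nearer 0 without control 1. They moved by over 1.5 times for 7 genes, Oas1a, Ifit2 and Irf9 as given above, Oas2 to −0.62, Trim30a to −0.34, Ddx58 to −0.30 and Ifih1 to −0.26. Control 1 had a median of 1.498 times the mean of control 2 and control 3 over the 31 genes, against 1.00 over all tested genes. Without it, the median log2 fold change of the 29 tested genes was −0.62, and all 29 stayed below 0. In that fit 14 were called, 3.06% of all tested genes being called lower. Leaving out Gls1_CamkIIaCre 2 left 11 called, with 1.495% of all tested genes called lower. Leaving out Gls1_CamkIIaCre 3 left 13, with 3.00% of all tested genes called lower. Within groups, the median coefficient of variation of the 29 tested genes was 12.8% in Gls1_CamkIIaCre libraries and 23.9% in control libraries. Between control 2 and control 3 alone it was 8.66%. The corresponding medians over all tested genes were 5.71%, 5.66% and 4.70%. These medians were not matched for count level, and low counts alone raise the coefficient of variation. The 10 genes with an ISRE core in the window had a median log2 fold change of −1.08, from −3.65 to −0.16. The 13 tested genes with a window but no core had −0.51, from −2.19 to −0.23. The ranges overlapped, all these genes were chosen with this contrast known, and nothing is read from the medians.

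**Figure D3:**
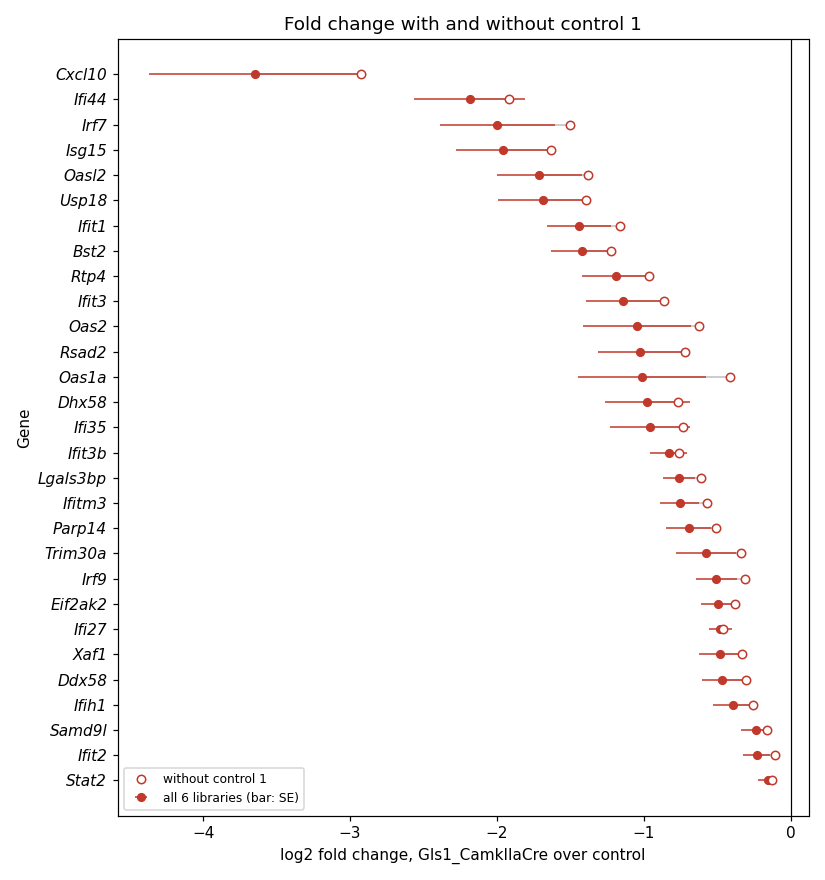
Log2 fold change of Gls1_CamkIIaCre over control (x axis) for the 29 tested interferon-stimulated genes, with all 6 libraries (filled, bar is the SE) and without control 1 (open). All symbols lie below 0, and the open symbol lies nearer 0 than the filled one in each row.

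The upstream parts of the pathway were described from lists that hold none of these 31 genes. These lists too were chosen with earlier results of these data known. Their counts and adjusted p describe the data and are not independent support. Of 21 interferon genes, 18 had 0 counts in all libraries, Ifnb1 among them. A count of 0 allows up to 0.153 to 0.167 CPM per library, for counting error only. In the main fit, 3.95% of all tested genes were called higher and 4.29% lower. Of 20 tested genes for receptors and signalling, 2 rose and 0 fell in that fit, with a median log2 fold change of 0.00. With DESeq2, limma voom or a replicate block, 2 rose and 1 fell. With limma on log2(FPKM + 1) or log2(FPKM + 0.1), and without control 1 or control 2, 0 rose and 1 fell. In the other fits 0 fell. Jak1, the receptor kinase, rose to 229.8 ± 9.60 CPM in Gls1_CamkIIaCre libraries, against 205.9 ± 10.3 CPM in control libraries (SD, n = 3 each, edgeR adjusted p = 0.0305). Pias1, an inhibitor of cytokine signalling, rose to 87.7 ± 2.29 CPM in Gls1_CamkIIaCre libraries, against 77.9 ± 1.80 CPM in control libraries (edgeR adjusted p = 0.0272). The Jak1 call was lost in 4 of 6 fits that left out 1 library and the Pias1 call in 5 of 6, with adjusted p up to 0.132 and 0.107.

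The receptor genes did not pass. Ifnar1 stood at 57.7 CPM in Gls1_CamkIIaCre libraries and 56.1 CPM in control libraries (edgeR adjusted p = 0.755). Ifnar2 stood at 17.3 CPM in Gls1_CamkIIaCre libraries and 17.6 CPM in control libraries (edgeR adjusted p = 0.912), and the kinase gene Tyk2 at 15.9 CPM in Gls1_CamkIIaCre libraries and 16.8 CPM in control libraries (edgeR adjusted p = 0.676).

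Of 27 tested sensors and adaptors, 2 rose and 1 fell, against 3.95% and 4.29% of all tested genes. Adar, which edits double-stranded RNA, rose to 208.1 ± 11.98 CPM in Gls1_CamkIIaCre libraries, against 176.9 ± 3.11 CPM in control libraries (edgeR adjusted p = 0.00241), a call lost with limma on log2(FPKM + 1) and log2(FPKM + 0.1) (adjusted p = 0.0625 and 0.0601). Tbk1, the kinase that activates IRF3, rose to 61.3 ± 2.01 CPM in Gls1_CamkIIaCre libraries, against 54.2 ± 2.50 CPM in control libraries (edgeR adjusted p = 0.0433). Trim25, a ubiquitin ligase acting on RIG-I, fell to 7.51 ± 1.02 CPM in Gls1_CamkIIaCre libraries, against 10.6 ± 1.18 CPM in control libraries (edgeR adjusted p = 0.0217). Leaving out 1 library ended the Tbk1 call in 5 of 6 fits and the Trim25 call in 4 of 6, with adjusted p up to 0.177 and 0.120.

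Of 9 tested interferon regulatory factors outside the 31 genes, 2 fell, against 4.29% of all tested genes called lower. Irf8, a factor of microglia and other myeloid cells, fell to 3.78 ± 0.161 CPM in Gls1_CamkIIaCre libraries, against 6.85 ± 1.80 CPM in control libraries (edgeR adjusted p = 0.00511). Irf1, an interferon gamma-induced factor, fell to 6.42 ± 0.881 CPM in Gls1_CamkIIaCre libraries, against 8.88 ± 1.29 CPM in control libraries (edgeR adjusted p = 0.0431), a call lost in 5 of 6 fits without 1 library, with adjusted p up to 0.208. Irf3, which starts interferon transcription, had 14.2 CPM in Gls1_CamkIIaCre libraries and 14.3 CPM in control libraries (edgeR adjusted p = 0.945).

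The remaining 3 lists, also chosen with earlier results of these data known, hold genes that interferon induces. Of 54 other interferon-stimulated genes tested, 11 fell and 0 rose, and the median log2 fold change was −0.36. Of all tested genes, 4.29% were called lower and 3.95% higher. Ddx60, an RNA helicase, fell to 1.44 ± 0.0647 CPM in Gls1_CamkIIaCre libraries, against 3.71 ± 0.953 CPM in control libraries (edgeR adjusted p = 0.00173), a call lost with limma on log2(FPKM + 1) and log2(FPKM + 0.1) (adjusted p = 0.0827 and 0.0542). The chemokine gene Cxcl9 fell to 0.286 ± 0.222 CPM in Gls1_CamkIIaCre libraries, against 1.82 ± 0.999 CPM in control libraries (edgeR adjusted p = 0.00437), a call lost on log2(FPKM + 1) (limma adjusted p = 0.0795). Ifi27l2a and Parp9 also fell, at log2 fold changes of −1.54 and −0.58 (edgeR adjusted p = 0.0147 and 0.0244), calls lost in 3 and 4 of 6 fits without 1 library, control 1 and Gls1_CamkIIaCre 2 among them for both, with adjusted p up to 0.0927 and 0.128. Without control 1, 2 of the 54 were called, 3.06% of all tested genes being called lower. The median of the 54 was then −0.21. Without Gls1_CamkIIaCre 1, 2 or 3 the calls numbered 4, 2 and 4. Over all tested genes, 2.71%, 1.495% and 3.00% were called lower in these 3 fits.

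Interferon-inducible GTPases attack the vacuoles of intracellular pathogens and respond to interferon gamma as well as type I interferon. Of 16 tested, 8 fell and 0 rose, against 4.29% of all tested genes called lower, with a median log2 fold change of −1.34. Irgm1, a regulator of the family, fell to 10.8 ± 0.651 CPM in Gls1_CamkIIaCre libraries, against 20.9 ± 4.84 CPM in control libraries (edgeR adjusted p = 0.00294). Tgtp2, Ifi47 and Gbp7 fell with log2 fold changes of −2.08, −1.50 and −0.55 (edgeR adjusted p = 0.00609, 0.0105 and 0.0135). All 3 calls were lost without Gls1_CamkIIaCre 2, and those of Ifi47 and Gbp7 also without control 1, with adjusted p up to 0.0641 for Tgtp2, 0.0919 for Ifi47 and 0.0976 for Gbp7. Without control 1, 9 GTPase genes were called and the median was −0.99, but 1 call, that of Irgm1, was left without Gls1_CamkIIaCre 2, and 5 calls without Gls1_CamkIIaCre 1 or 3. Shares of all tested genes called lower were 3.06% without control 1, and 2.71%, 1.495% and 3.00% without Gls1_CamkIIaCre 1, 2 and 3. The ISRE core was present in 9 of the 10 GTPase genes with a window.

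Of 17 tested genes for antigen presentation and the immunoproteasome, 7 fell and 0 rose, with a median log2 fold change of −0.65. Over all tested genes, 4.29% were called lower and 3.95% higher. Nlrc5, the transactivator of MHC class I genes, fell to 1.39 ± 0.291 CPM in Gls1_CamkIIaCre libraries, against 4.47 ± 2.01 CPM in control libraries (edgeR adjusted p = 0.00348), a call lost on log2(FPKM + 1) (limma adjusted p = 0.0750). Tap1, which carries peptides to MHC class I, fell to 3.37 ± 0.647 CPM in Gls1_CamkIIaCre libraries, against 7.35 ± 2.22 CPM in control libraries (edgeR adjusted p = 0.00414). H2-Q7 and the immunoproteasome gene Psmb8 fell at log2 fold changes of −1.81 and −1.02 (edgeR adjusted p = 0.0103 and 0.0123). The H2-Q7 call was lost without any one of the Gls1_CamkIIaCre libraries (adjusted p up to 0.0587), and that of Psmb8 without control 1 or Gls1_CamkIIaCre 1 (up to 0.0636). Calls numbered 8 without control 1, at a median of −0.45, and 2, 3 and 4 without Gls1_CamkIIaCre 1, 2 and 3. In these 4 fits, 3.06%, 2.71%, 1.495% and 3.00% of all tested genes were called lower.

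**Figure D4:**
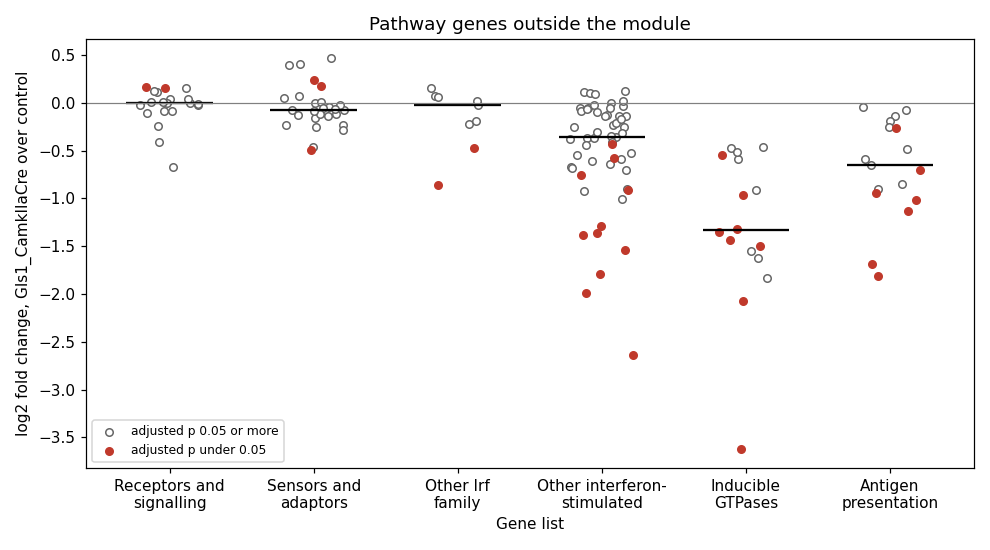
Log2 fold change of Gls1_CamkIIaCre over control (y axis) for tested genes of 6 interferon pathway lists (x axis), filled where the edgeR adjusted p is under 0.05, with a bar at each median. Medians of receptors, sensors and other Irf genes lie near 0, and those of the other 3 lists between −0.36 and −1.34.

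Markers of cell types were set beside these values. Beside the counts of called markers below, 4.29% of all tested genes were called lower and 3.95% higher. Summed microglia markers lay between 480.2 and 499.5 CPM in Gls1_CamkIIaCre libraries and between 494.9 and 532.1 CPM in control libraries, with 1 of 12 called lower (Olfml3). Border macrophage markers summed to 17.8 to 25.5 CPM in Gls1_CamkIIaCre libraries and 29.0 to 52.8 CPM in control libraries, with 0 of 7 tested genes called and a median log2 fold change of 0.00. Scaled per gene, their mean relative levels overlapped, at 1.08, 0.790 and 0.940 in Gls1_CamkIIaCre libraries and 1.28, 0.978 and 0.933 in control libraries. Blood leukocyte markers summed to 6.24 to 9.10 CPM in Gls1_CamkIIaCre libraries and 13.6 to 17.0 CPM in control libraries, with 1 of 4 tested genes called lower (Cd4). The sums overlapped between groups for microglia and did not for border macrophages or leukocytes.

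Endothelial markers summed to 284.5 to 306.9 CPM in Gls1_CamkIIaCre libraries and 298.0 to 337.3 CPM in control libraries, with 1 of 8 called lower. Pericyte and smooth muscle markers summed to 234.3 to 255.3 CPM in Gls1_CamkIIaCre libraries and 268.4 to 308.5 CPM in control libraries, with 5 of 7 called lower. For meningeal fibroblasts the sums were 67.3 to 76.9 CPM in Gls1_CamkIIaCre libraries and 95.8 to 108.2 CPM in control libraries, with 6 of 7 called lower. Striatal neuron markers, not defining of cortex, summed to 138.4 to 163.2 CPM in Gls1_CamkIIaCre libraries and 371.1 to 614.3 CPM in control libraries, with 9 of 10 called lower. Called lower were also 4 of 9 astrocyte markers, 3 of 8 oligodendrocyte markers, 3 of 6 inhibitory neuron markers and 0 of 4 tested markers of choroid plexus and ependyma. Oligodendrocyte precursor markers summed to 161.8 to 176.4 CPM in Gls1_CamkIIaCre libraries and 192.3 to 198.0 CPM in control libraries, with 3 of 5 called lower. Erythroid markers summed to 58.0 to 75.6 CPM in Gls1_CamkIIaCre libraries and 76.1 to 90.6 CPM in control libraries, with 2 of 5 called lower. Excitatory cortical neuron markers, which define the labelled tissue, were present in all libraries, at 5377 to 5911 CPM in Gls1_CamkIIaCre libraries and 5211 to 5451 CPM in control libraries. No marker of these lists was at 0 in all libraries.

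Striatal markers and interferon-stimulated genes had a different order among control libraries. The mean relative level of striatal markers, each gene scaled to its mean over the 6 libraries, was 1.25 in control 1, 2.20 in control 2 and 1.44 in control 3. For the 31 interferon-stimulated genes it was 1.82, 1.04 and 1.17 in the same libraries, and 0.728, 0.650 and 0.604 in Gls1_CamkIIaCre libraries. By this level, control 1 was also the highest control library for border macrophage, microglia and choroid plexus markers, and not for the other marker lists. Controls 1, 2 and 3 stood at 1.28, 0.978 and 0.933 for border macrophages and 1.075, 0.996 and 1.01 for microglia. Choroid plexus and ependyma markers stood at 1.24, 0.972 and 1.02. The part of tissue content in the values of the interferon-stimulated genes was not tested.

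**Figure D5:**
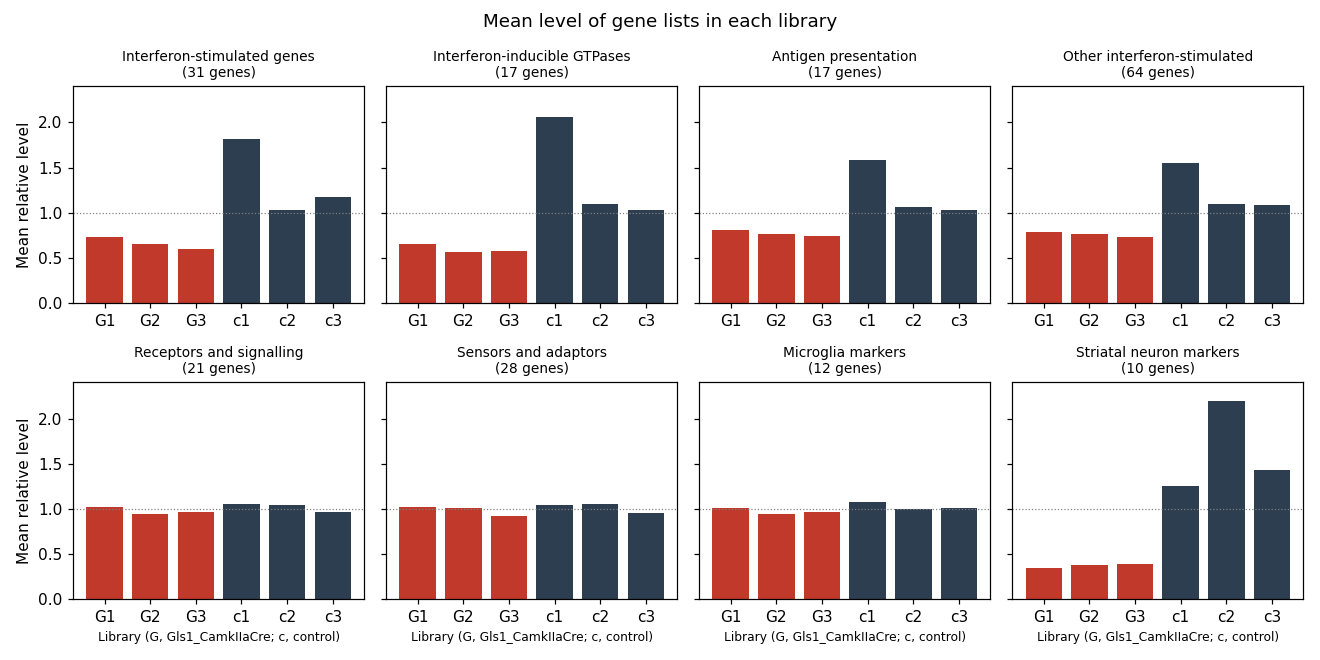
Mean relative level of 8 gene lists in each library (y axis from 0, each gene scaled to its mean over the 6 libraries), with G1 to G3 for Gls1_CamkIIaCre and c1 to c3 for control libraries on the x axis. Control 1 is the highest bar for the 4 interferon-induced lists, and also for receptors and signalling (1.057) and microglia markers (1.075). Control 2 is the highest bar for the striatal markers and for sensors and adaptors.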

How the data were processed

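Bulk RNA sequencing covered 6 prefrontal cortex libraries from 3 Gls1_CamkIIaCre and 3 control mice. Per the labels' protocols, TRIzol was used for total RNA and a SMARTER mRNA kit for library construction. The deposited values are integer read counts, plus a deposited FPKM table (values scaled to gene length and library size) for the same rows. GRCm38 and mm10 are the builds named in the submitters' processing notes. Not given in the sources used here are the aligner, the software used for counting, whether it used strand, and how FPKM values were computed. Library totals were close to each other, and intervals and floors cover counting error only.

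The test of counts was edgeR 4.0.16 run under R 4.3.3 (TMM, filterByExpr, robust quasi-likelihood fit), with no covariate, and p was adjusted by Benjamini-Hochberg over all 14440 tested genes. No library repeated another of its own group, chi-square over degrees of freedom being 2.25 to 4.05. Pairs between groups were not compared in this way. The common biological coefficient of variation was 4.75%. The procedure was tested on simulated data. Genes of the interferon module and all gene lists were chosen with earlier results of these data known. Named from each list were every called gene where 6 or fewer were called, otherwise the 4 of smallest p, and a few fixed pathway genes. Some genes that this rule picks are not reported here. Promoter windows and coordinates came from RefSeq (GRCm38.p6), and shared 50-base words from GENCODE M21 transcripts. Alternatives were DESeq2 1.42.0, limma 3.58.1 (voom, and log2 FPKM with a pseudocount of 1 or 0.1), other size factors and filters, a replicate block, and leaving out each library.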

Additional observations from a re-analysis of the deposited data

How the results depend on the processing

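Across 15 alternatives, none of the tested interferon-stimulated genes changed direction. Over all genes, 1190 were called (571 higher, 619 lower), against 672 (122 higher, 550 lower) with limma on log2(FPKM + 1) and 733 (126 higher, 607 lower) on log2(FPKM + 0.1), and 415 to 1098 when 1 library was left out. Upper-quartile factors gave 429 higher and 749 lower. Calls among the interferon-stimulated genes numbered 21, and 11 to 22 with 1 library left out. Their median log2 fold change of −0.96 was −0.44 on log2(FPKM + 1), a scale that understates changes of low genes, and ran from −1.10 to −0.62 with 1 library left out. Over the 7 pathway lists, 33 calls became 15 on log2(FPKM + 1) and 8 to 31 with 1 library left out. Of the other interferon-stimulated genes, 11 were called, against 17 with no filter, 6 with DESeq2, 6 with voom, 3 and 4 on log2(FPKM + 1) and log2(FPKM + 0.1), and 2 to 8 with 1 library left out. The cause of these shifts was not tested. Beside the losses given with each gene, the FPKM fits also ended the calls of Pias1, Jak1, Trim25, Tbk1, Irf1, Gbp7 and Psmb8 on both scales, Parp9 on log2(FPKM + 0.1), and Ifi47 and H2-Q7 on log2(FPKM + 1). DESeq2 and voom ended those of Tbk1 and Irf1, and upper-quartile factors that of Tbk1. Log2 fold changes near 0 changed sign with 1 library left out, running from −0.008 to 0.085 for Ifnar1, −0.113 to 0.035 for Ifnar2, −0.147 to 0.017 for Tyk2 and −0.121 to 0.083 for Irf3.

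The labels used here do not say whether the replicate numbers pair the mice. Deviations of same-numbered libraries correlated at 0.147, −0.035 and 0.165, and those of differently numbered libraries at −0.191 to 0.063. Pairing by number was therefore not settled, and the main fit used none. A fit with the replicate block called 1758 genes, 23 of them interferon-stimulated genes of the module, and Gls1_CamkIIaCre 2 did not correlate best with control 2. Low counts limit Zbp1, Oasl1 and Cxcl10 most.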
